A study of Mus musculus with 6 samples.

Results

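Kinesins, centromere proteins and the kinases of mitosis were described together as 74 genes of 23235 entries in a table of messenger RNA levels in mouse cells. They were chosen by gene symbol alone: every Kif gene with a number and at most 1 of the letters a to c, every Cenp gene with 1 letter, the Aurora (Aurk) and Polo-like (Plk) kinases, and named genes of the Ndc80 complex, the spindle checkpoint and the chromosomal passenger complex. All 74 symbols occur once in the table. By known role they divide into 11 mitotic kinesins, 13 transport kinesins, 13 other kinesins, 17 CENP genes, 4 genes of the Ndc80 complex, 4 chromosomal passenger genes, 5 spindle checkpoint genes and 7 further Aurora and Polo-like kinases. The rule for the symbols uses no expression value.

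RNA was sequenced from E14Tg2a cells, a mouse embryonic stem cell (ESC) line, at passages 37 to 40. The ESC group (3 samples) was kept pluripotent with 1 unit/ml leukemia inhibitory factor (LIF), and the group called Neuronal Cells (NCs, 3 samples) came from LIF-free monolayers of the same line given 1 µM retinoic acid (RA) for 48 h, with no allele or transgene named for either group. The deposited table gives the 3 samples of each condition as 1 FPKM per gene, a fragment count scaled for the length of the transcript and the depth of the library. With no value per sample, no SD is given and no test between the conditions was run, and every ratio below describes the deposited pair of values only.

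Summed over all entries, FPKM came to 770592 for ESCs against 628679 for NCs. Setting the sums equal would add 0.29 to every log2 ratio of NC to ESC, so small directions depend on the scaling, while differences between classes of genes do not. Genes with a mean FPKM of at least 1 entered the counts (12784 genes, 66 of the 74). Depth per sample is unknown. From the lowest values, 1 fragment in a transcript with 1 kb open to alignment came to 0.0119 or 0.0138 FPKM (ESCs) and to 0.00715 or 0.0135 FPKM (NCs), and 56.4% of 211 and 67.2% of 287 values under 0.02 FPKM lay in bins of 0.001 FPKM at these steps. Fragments were estimated with the larger step of each condition and the median length of a gene's protein-coding transcripts. On that basis the 66 genes rest on about 432 to 28576 fragments per condition, and the smaller step would give more. Counting error alone then gives their log2 ratios a standard error of 0.012 to 0.083. The spread between the replicates cannot be read from the table.

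The 8 pluripotency markers were all at least 2-fold lower in NCs, with Pou5f1 at 832 FPKM in ESCs and 37.1 in NCs, and all 5 RA response genes were higher, with Cyp26a1 at 0.874 and 215. Of 9 counted neural and neuronal markers, 3 were at least 2-fold higher in NCs and 4 at least 2-fold lower. The early neural genes Pax6 (3.64 and 65.2 FPKM) and Sox1 (1.77 and 21.8) were higher, and Neurod1 (10.1 and 0.259) was lower. Of genes known from neurons that have left the cell cycle, Stmn2 (142 and 11.8 FPKM), Tubb3 (33.4 and 7.54) and Mapt (1.91 and 0.871) were at least 2-fold lower, Rbfox3 had 1.11 and 0.832 FPKM, and Dcx was higher in NCs but under 1 FPKM in both (0.0140 and 0.334). The name NC is kept here as that of the 48 h RA culture. In it Rbfox3, Mapt and Dcx, markers of neurons, were each under 1 FPKM. Stmn2 and Tubb3 stayed above 1 FPKM there, at lower levels than in ESCs. Of the other cell types checked, 4 of 5 counted endoderm markers and 4 of 5 counted fibroblast markers were at least 2-fold higher in NCs, their summed FPKM going from 7.91 to 20.02 and from 19.8 to 44.1. What they contribute to the kinesin and kinetochore values was not tested, and in bulk RNA fewer cells of a type cannot be told apart from less RNA per cell.

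Kinesins are motors that walk along microtubules or shorten them, using ATP. One set builds and works the mitotic spindle and the midbody, and its genes are switched on in each cell cycle as cells approach mitosis. Another set carries vesicles, organelles, RNA and ciliary cargo in dividing and non-dividing cells and is best known for transport along axons. The centromere proteins mark the place on each chromosome where the kinetochore forms. The Ndc80 complex joins the kinetochore to microtubules, and the passenger complex, the checkpoint proteins and the Polo-like and Aurora kinases correct and time that attachment. Many genes that peak in G2 and mitosis carry a short promoter element near the transcription start, the cell cycle genes homology region (CHR), often with CCAAT boxes bound by NF-Y upstream of it. The CHR is bound by the DREAM complex in resting cells and by B-MYB and FOXM1 complexes in cells near mitosis.

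The 11 mitotic kinesins had 8.48 to 89.7 FPKM in ESCs and 6.13 to 69.5 FPKM in NCs. Every one was listed lower in NCs, with a median log2 ratio of -0.29, but with equal FPKM totals 5 of the 11 would be lower, as would 32.9% of all counted genes (52.4% as deposited), and the median would be 0.0036. Relative to the median of the 11717 genes with at least 1 FPKM in both conditions (log2 ratio -0.05), a reference that no scaling alters, all 11 lay below, as did 49.1% of all counted genes. No mitotic kinesin reached a 2-fold ratio, against 9.93% of all counted genes that were at least 2-fold lower. The summed FPKM of the class was 439 in ESCs and 355 in NCs.

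Kif22 (Kid), a chromokinesin that pushes chromosome arms away from the poles, had the highest level of the class, with 89.7 FPKM in ESCs and 69.5 in NCs. Its log2 ratio of -0.37 lay near the middle of the class. Kif20a, which carries the passenger complex to the central spindle, had 60.7 and 52.2 FPKM, and Kif2c (MCAK), a depolymerase that removes faulty attachments at centromeres, had 59.6 and 50.1. Kif23 (MKLP1), the motor of centralspindlin in cytokinesis, had 46.4 and 42.6 FPKM with a log2 ratio of -0.12. Kif11 (Eg5), the motor that pushes the poles apart, had 45.1 and 34.4 FPKM and a log2 ratio of -0.39. Kif15, which can take over part of the work of Kif11, had the highest ratio of the class, with 20.8 and 19.5 FPKM (log2 ratio -0.09).

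The lowest ratios of the class belonged to Kif18a and Kif20b. Kif18a, which damps chromosome oscillation at the metaphase plate, had 23.1 FPKM in ESCs and 13.5 in NCs, a log2 ratio of -0.78, and was the only mitotic kinesin at least 1.5-fold lower (18.8% of all counted genes were). Kif20b, a kinesin of late cytokinesis, had 32.8 and 22.1 FPKM and a log2 ratio of -0.57. Kif18b, the paralog of Kif18a that shortens astral microtubules, sat at the class median with 33.9 and 27.8 FPKM. The chromokinesin Kif4 had 18.2 and 16.7 FPKM. Kif14, a partner of citron kinase at the midbody, had the lowest level of the class, 8.48 and 6.13 FPKM. Exons of Kif18a overlap those of Mettl15 on the opposite strand (2.14 and 2.01 FPKM in Mettl15). Other opposite-strand overlaps are Kif20a with Cdc23 (46.9 and 42.1 FPKM in Cdc23), Kif4 with Pdzd11 (21.5 and 26.1 FPKM in Pdzd11) and Kif22 with Gm31749. Whether the counting used strand is not given in the sources used here.

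**Figure D1:**
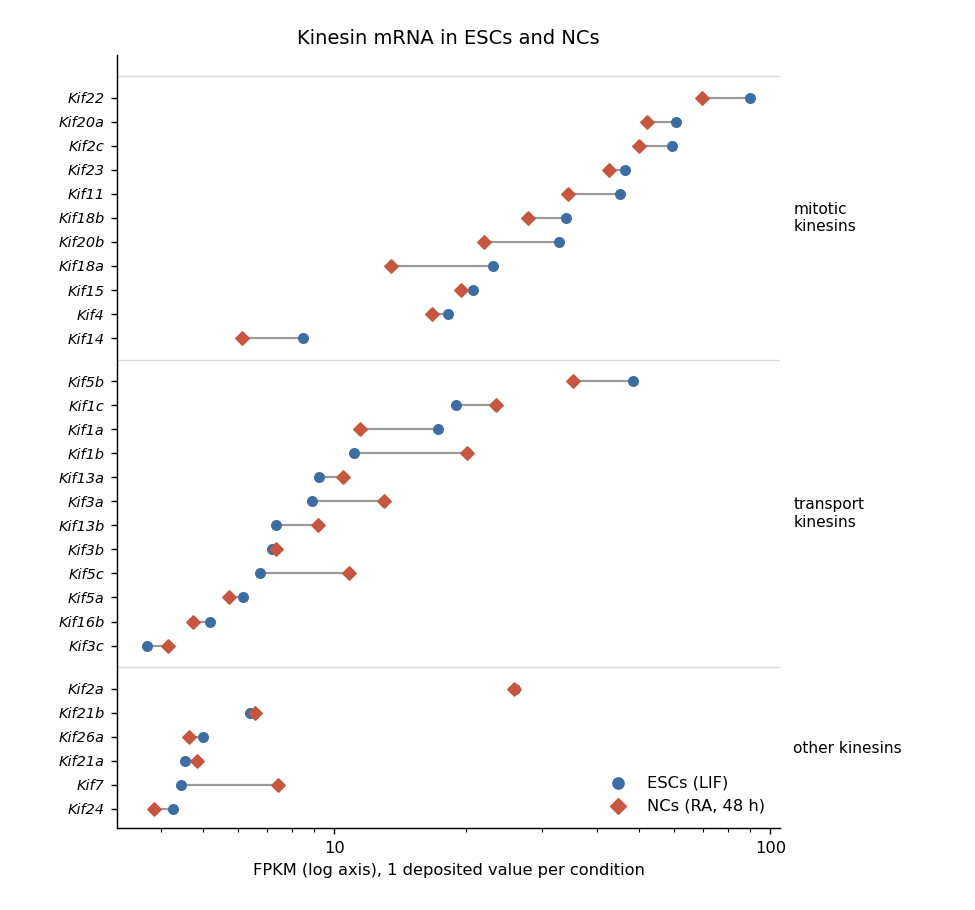
FPKM of each kinesin with a mean FPKM of at least 1 on a log axis, with 1 deposited value for ESCs (blue circles) and 1 for NCs (red diamonds) joined by a line. All 11 mitotic kinesins have the NC point to the left (5 of 11 with equal FPKM totals), while 8 of 12 transport kinesins have it to the right (10 of 12 with equal totals). Of all counted genes, 52.4% were lower in NCs as deposited and 32.9% would be with equal totals.

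Most promoter windows of the class share a feature that expression did not choose. RefSeq promoter windows on GRCm38.p6 (the assembly that UCSC calls mm10), from 250 bases before to 50 bases after each listed start, were found for 10 of the 11 mitotic kinesins, Kif20a having none. The CHR letters TTTGAA, searched on both strands, were present in 9 of these 10 windows (90%), against 17.9% of all 32851 windows and 11.4% of the windows of genes with a mean FPKM of at least 1. In 7 of the 9, the occurrence nearest the start began within 20 bases of it, and the whole range was -228 to 20 bases. The transport kinesins had the letters in 1 of 12 windows (8.33%). The 30 bases around the element nearest the start are printed 5′ to 3′ on the strand of the gene, with the element in capitals. TTCAAA is the same element read from the opposite strand.
Kif11, chr19:37376351-37376380, plus strand: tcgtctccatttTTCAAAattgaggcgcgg
Kif15, chr9:122951050-122951079, plus strand: tggggcgccaaaTTCAAAtctgcggccatc
Kif22, chr7:127042420-127042449, minus strand: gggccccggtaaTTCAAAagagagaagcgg
Kif18b, chr11:102925104-102925133, minus strand: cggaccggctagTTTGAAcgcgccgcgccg
Kif20b, chr19:34922353-34922382, plus strand: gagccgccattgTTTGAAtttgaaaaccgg
Kif23, chr9:61946780-61946809, minus strand: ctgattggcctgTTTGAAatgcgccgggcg
Kif4, chrX:100626072-100626101, plus strand: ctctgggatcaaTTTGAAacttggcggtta
Kif2c, chr4:117178858-117178887, minus strand: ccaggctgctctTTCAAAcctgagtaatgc
Kif14, chr1:136467608-136467637, plus strand: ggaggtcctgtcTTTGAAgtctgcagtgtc

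The first 7 of these sequences hold the element close to the listed start, and Kif2c and Kif14 hold it at -103 and -228. The listed starts of the Kif2c and Kif14 windows lie inside their GENCODE genes, which begin at 117182639 (minus strand) and 136466343 (plus strand). Their elements are therefore upstream of an internal start, not of the gene. The listed starts of Kif4, Kif15 and Kif22, and their elements, also lie inside the genes. These begin at 100625737 (Kif4, plus strand), 122951046 (Kif15, plus strand) and 127042471 (Kif22, minus strand). Kif18a, which had the lowest ratio of the class, was the mitotic kinesin whose window lacked the letters. The NF-Y box CCAAT (or ATTGG on the other strand) was found in 6 of the 10 windows (60%), a share to be read against 37.4% of all windows. All 6 of these windows also held the CHR letters, whereas 6.95% of all windows held both motifs and none of the 12 transport windows did. Kif11 shows the arrangement in the 100 bases before its start (chr19:37376282-37376381, plus strand), where an NF-Y box at -45 precedes the element at -19, both in capitals.
Kif11 upstream: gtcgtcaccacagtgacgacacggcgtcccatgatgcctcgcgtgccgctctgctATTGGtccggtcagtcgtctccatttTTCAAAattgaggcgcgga

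The variant form TTTAAA was present in 2 of the 10 mitotic windows and in 13.2% of all windows. Over the 48 genes of the set with a role in division (the mitotic kinesins, CENP, Ndc80, passenger, checkpoint and kinase genes), 23 of 47 windows (48.9%) held TTTGAA. The division genes with the element in a window (22 genes) had a median log2 ratio of -0.29 and those without it (22 genes) had -0.22, a difference much smaller than the range within either. As deposited, 20 of the 22 with it and 14 of the 22 without it were lower in NCs (52.4% of all counted genes were). Their median levels in ESCs were 41.5 and 21.0 FPKM. These are matches of letters, not measured binding.

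**Figure D2:**
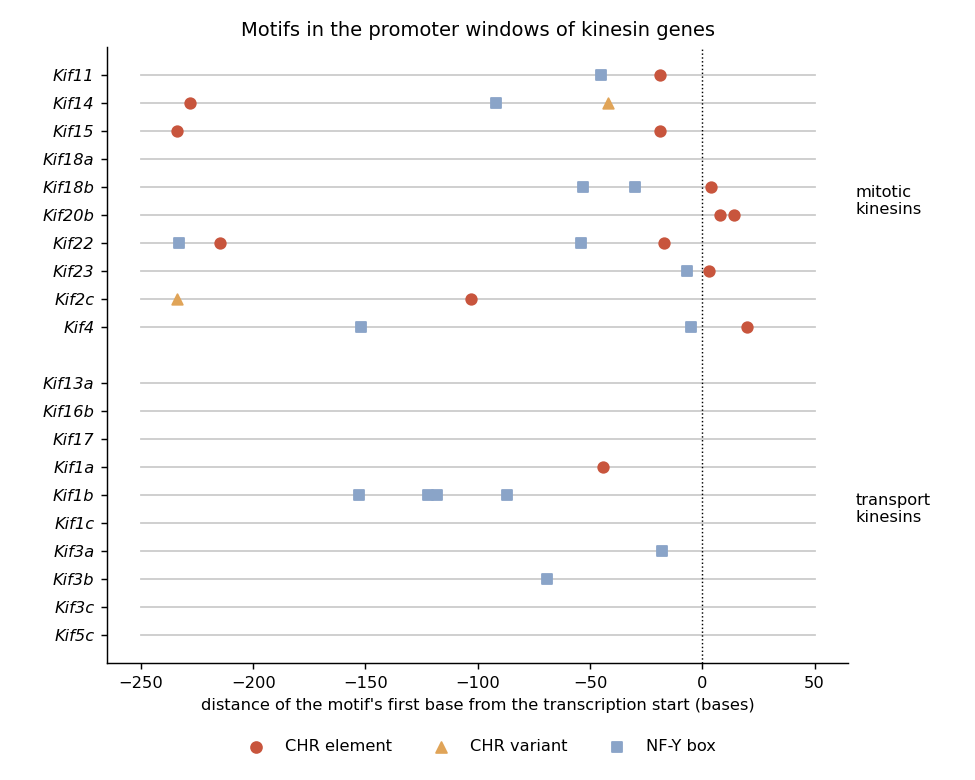
Position of the CHR element (TTTGAA, circles), its variant (TTTAAA, triangles) and the NF-Y box (CCAAT, squares) in the RefSeq promoter windows of mitotic and transport kinesins, in bases from the listed transcription start. Circles lie in 9 of 10 mitotic rows, mostly near the dotted line at the start, and in 1 transport row, that of Kif1a. The listed starts of Kif2c, Kif14, Kif4, Kif15, Kif22 and the Kif1a window with the circle lie inside the genes.

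The 13 transport kinesins formed a lower and more mixed class. Of the 12 in the counts, 8 were listed higher and 4 lower in NCs, with a median log2 ratio of 0.17 as deposited. With equal FPKM totals the median would be 0.46, with 10 higher and 2 lower, and 32.9% of all counted genes would be lower. Below the median of the 11717 genes lay 4 of the 12 (49.1% of all counted genes did). For comparison, 47.6% of all counted genes were higher as deposited. None reached 2-fold (11.1% of all counted genes were at least 2-fold higher). At 1.5-fold 2 were higher and 1 was lower, against 19.3% and 18.8% of all counted genes. Levels ran from 3.72 to 48.3 FPKM in ESCs and from 4.15 to 35.3 FPKM in NCs.

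Kinesin-1 pulls most anterograde cargo. Its ubiquitous heavy chain Kif5b had 48.3 FPKM in ESCs and 35.3 in NCs (log2 ratio -0.45), more than the other transport kinesins in both conditions. Kif5c, best known from neurons, had 6.75 and 10.8 FPKM (log2 ratio 0.68), and Kif5a, also neuronal, had 6.18 and 5.73. The make-up of the family was therefore not the same in the 2 conditions, and these shares do not depend on the scaling. Of the summed kinesin-1 FPKM (61.2 and 51.8), Kif5b made up 78.9% in ESCs and 68.1% in NCs, Kif5c 11.02% and 20.9%, and Kif5a 10.1% and 11.1%.

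The kinesin-3 motors Kif1a and Kif1b, which carry synaptic vesicle precursors, stood at opposite ends of the class. Kif1b had 11.1 FPKM in ESCs and 20.1 in NCs, the highest ratio of the transport kinesins (log2 ratio 0.86, 1.81-fold). Kif1a, the form most particular to neurons, had 17.3 and 11.4 FPKM, the lowest ratio (log2 ratio -0.60). Kif1c, a broadly expressed relative, had 19.0 and 23.5 FPKM. Of the summed Kif1 FPKM (47.4 and 55.1), Kif1a made up 36.5% in ESCs and 20.8% in NCs, and Kif1b 23.4% and 36.5%. Kif1a was also the transport kinesin with the CHR letters, in a window at one of its listed starts, 44 bases upstream of it. That start lies inside the gene, which begins at 93101951 on the minus strand. The window at its other listed start held no CHR letters. The match is shown here for comparison with the mitotic elements.
Kif1a, chr1:93082507-93082536, minus strand: tttgacagcctcTTTGAAcattgctcctaa

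Among the endosomal kinesin-3 motors, Kif13a had 9.24 and 10.4 FPKM, Kif13b 7.34 and 9.18, and Kif16b 5.19 and 4.74. The heterotrimeric kinesin-2 motors serve cilia and membrane traffic, and their shared subunit Kif3a had 8.88 FPKM in ESCs and 13.02 in NCs (log2 ratio 0.55). Its alternative partners were closer between the conditions, Kif3b with 7.21 and 7.34 FPKM and Kif3c with 3.72 and 4.15. Kif3a thus made up 44.8% of the summed Kif3 FPKM in ESCs and 53.1% in NCs. Kif17, the homodimeric kinesin-2 of dendrites, stayed below the limit for the counts with 0.734 and 0.548 FPKM, and its exons overlap those of Sh2d5 on the same strand.

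The median log2 ratio of the transport kinesins lay 0.46 above that of the mitotic kinesins, a value that no scaling can move. It ranged from 0.42 to 0.53 over the other pseudocounts, filters and class boundaries tried. The classes overlapped: Kif1a and Kif5b had lower ratios than most mitotic kinesins, and Kif15 had a higher ratio than 4 transport kinesins, Kif16b, Kif5a, Kif5b and Kif1a. The median FPKM of the mitotic kinesins was 33.9 in ESCs and 27.8 in NCs, that of the counted transport kinesins 8.11 and 10.6. Mitotic kinesins were therefore 4.18-fold above transport kinesins in ESCs and 2.61-fold above them in NCs, by medians of FPKM, which is scaled for length. The median ratio of all counted genes was -0.04 and their middle 50% ran from -0.44 to 0.41, a range that held both class medians. No replicate spread is available against which to set the difference.

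**Figure D3:**
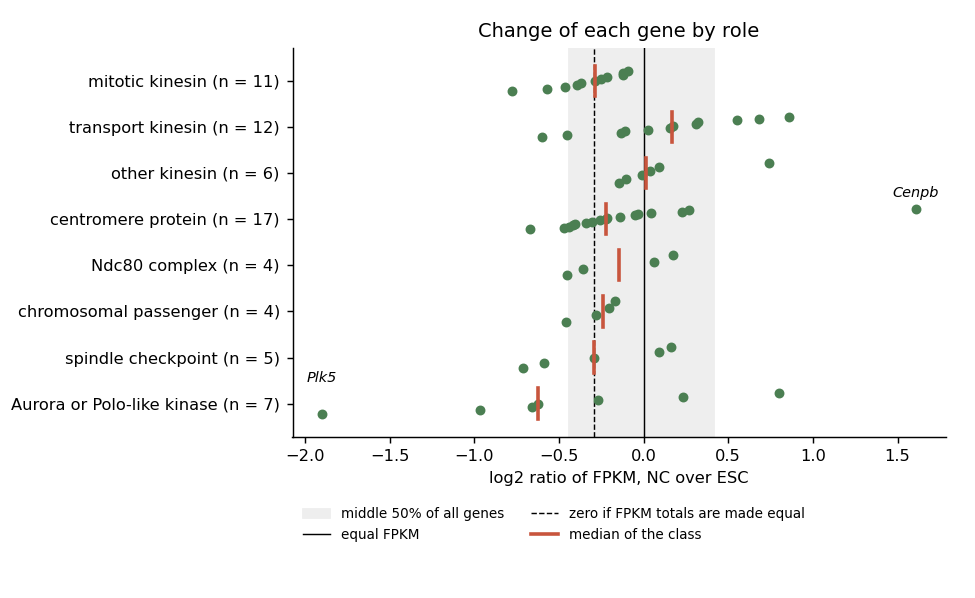
Log2 ratio of NC to ESC FPKM for each of the 66 counted genes, 1 point per gene, by role, with the class median as a red bar and the middle 50% of all counted genes as grey shading. The median of the mitotic kinesins (-0.29) lies on the dashed line that would become 0 with equal FPKM totals, the transport median (0.17) lies 0.46 to its right, and Plk5 and Cenpb are the only points beyond 2-fold.

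Of the 13 other kinesins 6 entered the counts. Kif2a, a depolymerase of spindle poles and axon branches, had 25.99 FPKM in ESCs and 25.8 in NCs, well above the rest of this class. Kif7, which organises the ciliary tip for Hedgehog signalling, had 4.45 and 7.42 FPKM (log2 ratio 0.74). It was the only counted other kinesin at least 1.5-fold higher (19.3% of all counted genes were). The rest lay between 3.85 and 6.59 FPKM in both conditions: Kif21a (4.55 and 4.83) and Kif21b (6.41 and 6.59), kinesins that slow microtubule growth, Kif24 of the centriole (4.25 and 3.85), and Kif26a (4.99 and 4.65). Those with little mRNA were mainly kinesins of motile cilia and epithelia. Kif6 (0.315 and 0.317 FPKM), Kif9 (0.457 and 0.524), Kif19a (0.761 and 0.462) and Kif27 (0.312 and 0.462) were all under 1 FPKM. Kif12 had 0.00671 and 0.341 FPKM and Kif26b 0.0730 and 0.309, and Kif2b was listed at 0 in ESCs and below the 3-fragment floor of 0.0405 FPKM in NCs.

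The 17 CENP genes all entered the counts. As deposited 13 of them were lower in NCs (52.4% of all counted genes were), with a median log2 ratio of -0.22, and with equal FPKM totals 7 would be lower (32.9% of all counted genes would) with a median of 0.07. Below the median of the 11717 genes lay 12 of the 17 (49.1% of all counted genes did). Cenpa, the histone H3 variant that marks centromeric chromatin, had the highest level with 132.8 FPKM in ESCs and 110.9 in NCs. Its window carries the CHR element 17 bases after the listed start (chr5:30666890-30666919, plus strand), shown as an example from outside the kinesins. That start lies inside the gene, which begins at 30666777.
Cenpa: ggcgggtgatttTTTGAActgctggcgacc

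Cenpb was the exception among the centromere genes. It encodes a protein that binds a short DNA box in centromeric satellite repeats and lies on the minus strand of chromosome 2 (GRCm38, chr2:131175182-131180067). It had 14.2 FPKM in ESCs and 43.4 in NCs, a log2 ratio of 1.61 (3.05-fold), and was the only 1 of the 66 genes at least 2-fold higher in NCs as deposited, while Kif1b, Kif7 and Plk3 would also pass with equal FPKM totals. Its exons overlap those of Spef1 on the same strand, which had 0.588 and 1.40 FPKM, far less than Cenpb in either condition. Neither CHR letters, their variant nor an NF-Y box was found in its window.

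The inner kinetochore set holds 11 of the CENP genes, those of the constitutive complex that stands on Cenpa chromatin. As deposited 9 were lower in NCs (52.4% of all counted genes were), with a median log2 ratio of -0.22. That median would turn positive with equal FPKM totals. Below the median of the 11717 genes lay 8 of the 11 (49.1% of all counted genes did). Cenpt, which links this complex to Ndc80, had 45.7 FPKM in ESCs and 28.7 in NCs, the lowest ratio of the CENP genes (log2 ratio -0.67). Its histone-fold partner Cenpw had 19.99 and 15.0 FPKM. In rising order of the ratio, Cenpp had 20.2 and 14.9 FPKM, Cenpo 7.17 and 5.41, Cenpm 26.1 and 21.1, and Cenpk, at the median, 16.5 and 14.1. Above the median stood Cenpi (12.8 and 11.6 FPKM), Cenpl (10.3 and 9.97), Cenpn (26.7 and 26.1), Cenph (33.4 and 34.4) and Cenpq (15.2 and 17.7), with Cenph and Cenpq listed higher in NCs. Subunits of one complex did not all share a ratio, and the spread from Cenpt to Cenpq (-0.67 to 0.23) was wider than the whole shift between scalings.

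The CENP genes that encode no constitutive subunit were more diverse. Cenpe, a kinesin that carries chromosomes to the metaphase plate, had 19.1 FPKM in ESCs and 16.4 in NCs. Cenpf, a large protein of the outer kinetochore, had 21.6 and 17.1 FPKM. Cenpv, linked to centromere condensation, had 56.7 and 41.0 FPKM (log2 ratio -0.47). Cenpj (CPAP), which builds centrioles rather than kinetochores, had the lowest level, 3.39 and 4.08 FPKM.

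**Figure D4:**
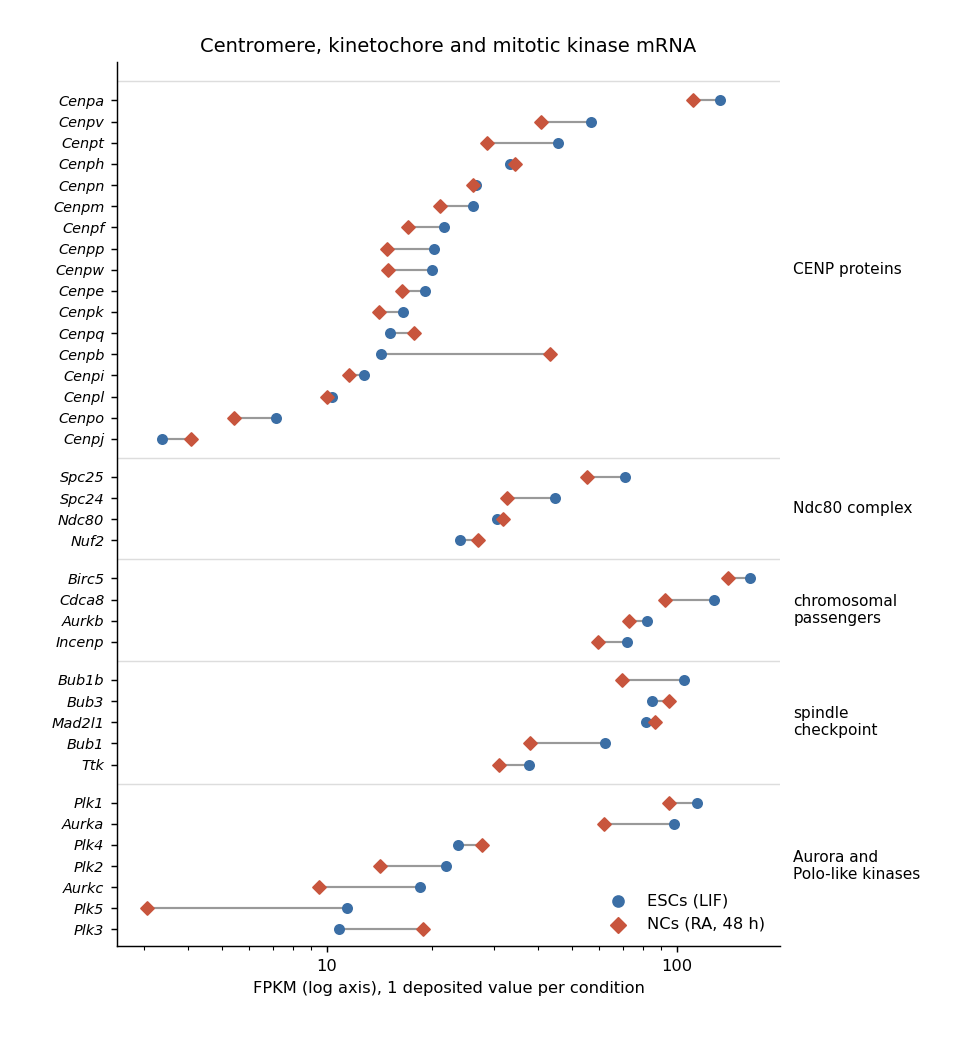
FPKM of the 37 centromere, kinetochore, checkpoint and kinase genes on a log axis, with 1 deposited value for ESCs (blue circles) and 1 for NCs (red diamonds) joined by a line. The longest lines are those of Cenpb (14.2 to 43.4 FPKM) and Plk5 (11.4 to 3.06 FPKM), in opposite directions.

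The Ndc80 complex divided by its arms. Ndc80 and Nuf2, whose heads grip the microtubule, had 30.5 and 24.0 FPKM in ESCs and 31.9 and 27.1 in NCs (log2 ratios 0.06 and 0.17). Spc24 and Spc25, which face the inner kinetochore, had 44.7 and 71.0 FPKM in ESCs and 32.6 and 55.5 in NCs (log2 ratios -0.45 and -0.36). The summed FPKM of the head pair was thus 54.6 and 59.0 and that of the other pair 115.7 and 88.1, so that the pairs stood nearer to each other in NCs whatever the scaling.

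All 4 genes of the chromosomal passenger complex had the lower FPKM in NCs as deposited (52.4% of all counted genes had), and 1 of the 4 would with equal FPKM totals (32.9% of all counted genes would). Birc5 (survivin) had the highest level of all 74 genes, 161.7 FPKM in ESCs and 140.1 in NCs. Cdca8 (borealin) had 127.6 and 92.8 FPKM, the lowest ratio of the complex (log2 ratio -0.46). The scaffold Incenp had 72.2 and 59.6 FPKM, and the kinase Aurkb 82.0 and 73.0 (log2 ratio -0.17). The 4 log2 ratios lay within a narrow band, from -0.46 to -0.17.

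Checkpoint genes lay on both sides of equal FPKM. Bub1, the kinase that recruits shugoshin and the checkpoint proteins to kinetochores, had 62.5 FPKM in ESCs and 38.1 in NCs (log2 ratio -0.71, 1.64-fold lower), and Bub1b (BubR1), part of the complex that inhibits the anaphase promoting complex, had 104.9 and 69.7 (log2 ratio -0.59, 1.51-fold lower). Their partner Bub3 had 84.8 and 94.7 FPKM and Mad2l1 (Mad2) had 81.7 and 86.9. Bub1 and Bub1b both dock on Bub3, and they and Bub3 had ratios of opposite sign as deposited and with equal FPKM totals alike. Ttk (Mps1), the kinase that starts checkpoint signalling, had 37.9 and 30.9 FPKM.

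The Aurora and Polo-like kinases varied most. Aurka, which works at spindle poles, had 97.9 FPKM in ESCs and 62.1 in NCs (log2 ratio -0.66). Of the summed Aurora FPKM (198 and 145), Aurkb made up 41.4% in ESCs and 50.5% in NCs and Aurka 49.3% and 43.0%, so that the order of the pair was exchanged. Aurkc, the Aurora kinase of germ cells, had 18.5 and 9.46 FPKM, but its value is uncertain. Of the 50-base words in its longest protein-coding transcript, 63.7% occur in other genes, mainly Gm12463. The other members with more than 5% were Plk1 (6.84%), Plk4 (5.48%), Ndc80 (5.34%) and Cenpw (5.18%).

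Plk1, the kinase of mitotic entry and cytokinesis, had 114.3 FPKM in ESCs and 94.8 in NCs (log2 ratio -0.27) and made up 62.8% and 59.8% of the summed Polo-like kinase FPKM. Plk4, which starts centriole duplication, had 23.7 and 27.8 FPKM (log2 ratio 0.23). The stress-responsive members differed from each other, Plk2 with 21.9 and 14.2 FPKM (log2 ratio -0.62) and Plk3 with 10.8 and 18.8 (log2 ratio 0.80). Plk5, a member that lacks a working kinase domain and is best known from the brain, had 11.4 FPKM in ESCs and 3.06 in NCs, a log2 ratio of -1.90 (3.73-fold). It lies on the plus strand of chromosome 10 (GRCm38, chr10:80356459-80365489) and was the only 1 of the 66 genes at least 2-fold lower in NCs. Its share of the Polo-like kinase sum was 6.27% in ESCs and 1.93% in NCs, and that of Plk3 5.94% and 11.9%.

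Over all 66 counted genes the picture was one of small ratios. Only Plk5 (lower) and Cenpb (higher) passed 2-fold, where 9.93% and 11.1% of all counted genes did. At 1.5-fold, 9 were lower (Kif18a, Kif1a, Cenpt, Bub1, Bub1b, Aurka, Aurkc, Plk2 and Plk5) and 5 higher (Kif1b, Kif5c, Kif7, Cenpb and Plk3), against 18.8% and 19.3% of all counted genes. The 48 division genes had 38 lower in NCs and a median log2 ratio of -0.27 as deposited (52.4% of all counted genes were lower), but 21 lower and a median of 0.02 with equal FPKM totals (32.9% of all counted genes). Relative to the median of the 11717 genes, 37 of the 48 and 43 of the 66 lay below, as did 49.1% of all counted genes. The summed FPKM of the 48 division genes was 2205 in ESCs and 1849 in NCs.

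Related genes were read from lists by function, and equal FPKM totals would raise each of their medians by 0.29, so that medians above -0.29 would turn positive. The counts of lower genes below stand against 52.4% of all counted genes as deposited, which would be 32.9% with equal totals. Of 23 counted kinetochore genes that the symbols did not select, 15 were lower in NCs, with a median log2 ratio of -0.20 as deposited. Their lowest ratios were those of Sgol2, a shugoshin that protects centromeric cohesion (33.7 and 17.8 FPKM), and Zwilch, a subunit that recruits dynein to kinetochores (51.0 and 27.4). The highest were those of Ska2 (29.7 and 44.7 FPKM), of the complex that holds shrinking microtubules, and Mis12 (19.2 and 26.7), which joins Ndc80 to the inner kinetochore.

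Of 22 counted spindle assembly factors and their regulators, 18 were lower, with a median of -0.35. Mybl2, which encodes the B-MYB protein of the CHR-binding complex, had 228.6 FPKM in ESCs and 34.9 in NCs (log2 ratio -2.71), and Anln, a scaffold of the cytokinetic ring, had 76.9 and 35.3 FPKM. Cdc25b (16.6 and 20.02 FPKM) and Tacc3 (57.5 and 66.3) had the highest ratios of that list. The 19 genes of the anaphase promoting complex and chromatid separation had a median of -0.10, with 14 lower. Pttg1 (securin, 157.8 and 74.8 FPKM) and Espl1 (separase, 40.7 and 21.2), which bind each other, had the lowest ratios, and the subunits Cdc26 (51.8 and 66.5) and Cdc27 (19.1 and 23.9) the highest.

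The DNA replication genes, which mark S phase rather than mitosis, had 25 of 29 lower and a median log2 ratio of -0.43, below that of the mitotic kinesins. Orc1, of the origin recognition complex, had 36.4 FPKM in ESCs and 17.5 in NCs, and the polymerase subunit Pold1 64.5 and 39.6, while Rfc3 (42.1 and 61.2) and Gins3 (6.32 and 9.17) had the highest ratios. As deposited the list was lower together with the mitotic genes, and its part in their values was not tested. With equal FPKM totals its median would stay negative, while that of the mitotic kinesins would be 0.0036.

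On the transport side, 12 of 17 counted subunits of cytoplasmic dynein and dynactin, the motor that walks the other way, were higher in NCs (47.6% of all counted genes were), with a median log2 ratio of 0.12 as deposited. The light chain Dynll2 (71.4 and 124.2 FPKM) and the light intermediate chain Dync1li2 (12.2 and 19.3) had the highest ratios, whereas the heavy chain Dync1h1 (39.0 and 30.9) and Dync1li1 (42.4 and 34.3) had the lowest. Of 13 kinesin adaptors and cargo linkers, a list that also holds the motors Kifc2 and Kifc3, 9 were lower in NCs, with a median of -0.26. The kinesin-1 light chain Klc1 (22.0 and 33.1 FPKM) and the scaffold Mapk8ip1 (16.7 and 28.8) were the highest of this list, and Jup (37.4 and 10.1), a junction protein listed here as a cargo linker, and Mapk8ip2 (4.20 and 1.91) the lowest.

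**Figure D5:**
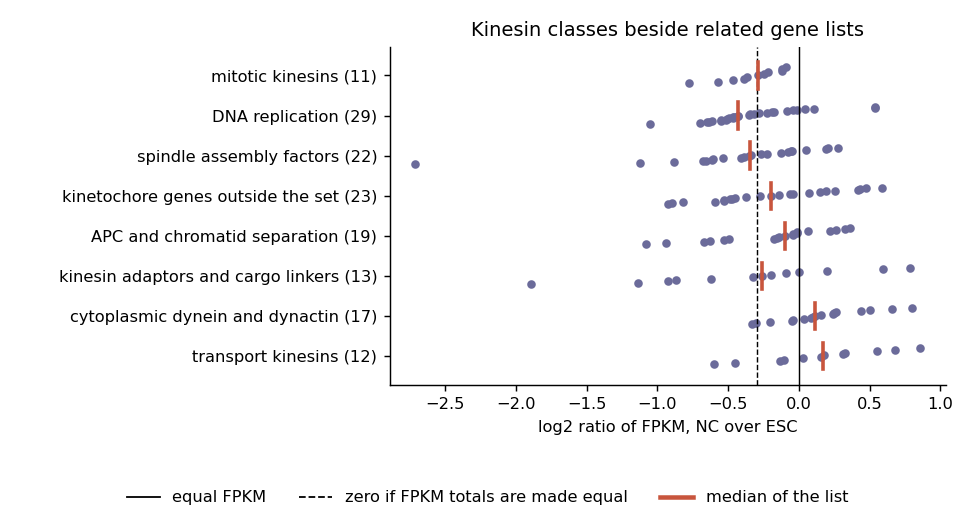
Log2 ratio of NC to ESC FPKM for the counted genes of the mitotic and transport kinesins and of 6 related lists, 1 point per gene, with each median as a red bar and the number of genes in parentheses. The medians run from -0.43 (DNA replication) to 0.17 (transport kinesins), and the dashed line shows where 0 would lie with equal FPKM totals.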

How the data were processed

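TruSeq libraries were sequenced on an Illumina HiSeq instrument from 3 ESC and 3 NC samples. The authors aligned the reads to mm10 with TopHat2 (2.0.8), which calls Bowtie2 (version 2.1.0), and ran Cufflinks 2.0.2 and Cuffdiff, as their processing notes list. They deposited 1 FPKM for each gene in each condition. The NC heading reads FPK and was taken as FPKM. Fold changes, test statistics, p-values and q-values of the authors are also in the table and were not used. The genes were UCSC genes. Their release, the Cuffdiff normalization option and whether counting used strand are not given in the sources used here.

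Log2 ratios of NC to ESC were computed without a pseudocount for genes with a mean FPKM of at least 1, and a gene was called past 2-fold. The design for 1 value per condition was used, with no test. Values below 0.02 FPKM gave the size of 1 fragment, with a fragment length of 200 bases assumed, and 3 fragments were the floor. Members were described by role with both values. In the other lists the 2 highest and 2 lowest ratios were named, and markers were given as counts with examples, 1 of them not being reported here. The symbols that define the set use no expression value, but the set, its roles and the lists were chosen with earlier results of these data known. Exons came from GENCODE M21 on GRCm38, and RefSeq promoter windows matched 65 of the 74 genes. In 52 of these 65, early bases of a GENCODE transcript were found near the listed start. Exons of 22 genes overlap another gene, 4 on the same strand. Alternatives were pseudocounts of 0.1 and 1, no filter, a minimum of 5 FPKM, a 1.5-fold limit, centring, other class boundaries and, chosen after seeing the data, equal FPKM totals with and without the 100 highest genes. The computation was tested on simulated data. Python 3.11.15, numpy 2.4.6, pandas 2.3.3 and matplotlib 3.10.9 were used.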

Additional observations from a re-analysis of the deposited data

How the results depend on the processing

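No paired analysis was possible because the table holds 1 value per gene and condition, none per sample, and for the same reason leaving out each replicate could not be run. Of 88 alternatives over 11 results, 70 stayed within 0.1 on the log2 scale or within 1.5 times a count, 15 moved further and 3 changed sign. Some of the 70 could not change. A shift of all ratios leaves the difference between classes as it was, and a pseudocount cannot alter which condition has the lower FPKM. The sign changed with equal FPKM totals, chosen after seeing the data, for the median log2 ratio of the mitotic kinesins (0.0036), the CENP genes (0.0701) and the 20 kinase, checkpoint, passenger and Ndc80 genes (0.008). The transport median became 0.4607, and 5 mitotic kinesins kept the lower FPKM, where 32.9% of all counted genes would be lower. With totals made equal without the 100 highest genes, which held 42.9% of the ESC and 37.9% of the NC sum, these medians were -0.1177, -0.0512, -0.1133 and 0.3394 (transport). Genes at least 2-fold higher numbered 4 with equal totals, 2 without the 100 highest genes and 3 with no filter, and the transport kinesins among them 1 under either scaling. At 1.5-fold, 9 genes were lower and 5 higher, with 1 mitotic kinesin lower and 2 transport kinesins higher. Of all counted genes, 18.8% were lower and 19.3% higher at that limit. The difference between transport and mitotic medians, which no scaling can move, kept its sign under the other alternatives run. Depth per sample and replicate spread limit all ratios.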
